A study of Mus musculus with 8 samples.

Results

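The nuclear tRNAs that decode alanine, valine, isoleucine and methionine were followed through 8 small RNA libraries of mouse bone marrow-derived macrophages (BMDMs). Members were all features typed as nuclear tRNA genes whose name gives Ala, Val, Ile or Met as the amino acid, in either of the 2 deposited tables. This rule found 96 gene copies among 3514 features, and it used no measured value. They are 38 copies for alanine, 22 for valine, 17 for isoleucine and 19 for methionine, and they carry 10 anticodons. The other 332 nuclear tRNA features carry 41 further anticodons. Of the members, 95 are listed for the Ion Proton run, 92 for the SOLiD run, and 91 for both.

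All libraries came from BMDMs of C57BL/6J mice, isolated from males aged 10 weeks, and no engineered allele is named for them. Control BMDMs were set against BMDMs kept for 36 h without M-CSF, the colony-stimulating factor on which macrophages depend, a stimulus the study used to drive apoptosis. For the Ion Proton run, total RNA was sequenced in 2 control libraries and 2 from deprived cells, as labelled replicates. The SOLiD run had a single library per condition for total RNA, and a single one per condition for RNA cut from a gel at 25 to 40 nt. The libraries capture short inserts, so a read on a tRNA gene can come from a fragment or from a whole tRNA, and the tables do not separate these. The labels call the Ion Proton extract small RNA, while the methods name total RNA as its input, and its samples are treated here as total RNA. The methods call the Ion Proton replicates biological, but no source ties them to separate mice or cultures, so p-values measure only the spread between these libraries, which may be technical.

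Counted reads numbered 6053130 to 7760142 per Ion Proton library and 4039837 to 12178454 per SOLiD library. Nuclear tRNAs took 26.7% and 26.6% of counted reads in the Ion Proton controls and 47.1% and 44.6% after M-CSF withdrawal. For SOLiD total RNA the share was 10.1% in control and 42.1% after withdrawal, and for the 25 to 40 nt RNA 8.78% and 41.3%. MicroRNAs went the other way, at 82.2% and 41.3% of counted reads for SOLiD total RNA. In the Ion Proton libraries they held 40.4% and 41.6% in controls against 30.0% and 30.3%. Values scaled to the counted total are therefore shares of a total in which classes trade places, and whether a tRNA rose or the rest of the small RNA fell cannot be told apart. All 6 myeloid microRNA markers were listed in every library, together at 5.11% to 38.5% of reads. In each library miR-21a-5p made up most of that sum. miR-142a-3p had 1 and 3 reads in SOLiD control and withdrawal total RNA, and 1 and 15 in the 25 to 40 nt RNA. The markers of other cell types together held at most 0.00353% of Ion Proton reads and 0.399% to 0.641% of SOLiD reads. Among these, miR-451a had 18626 reads in SOLiD control total RNA. This exceeded miR-142a-3p, miR-155-5p (2084) and miR-142a-5p (3896), but not miR-223-3p (67682), miR-146a-5p (76178) or miR-21a-5p. RNA integrity numbers were 8.4 to 8.9 in the Ion Proton run, 8.4 and 7.5 for SOLiD control and withdrawal total RNA, and 2.7 and 2.6 for the size selected RNA. Their part in the results was not tested.

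A transfer RNA reads a codon with the anticodon at its centre and delivers the amino acid at its 3′ end. RNA polymerase III transcribes the genes, which exist in many near-identical copies, and tRNAs that carry the same amino acid on different anticodons are called isoacceptors. Alanine tRNAs occur with the anticodons AGC, CGC and TGC, valine tRNAs with AAC, CAC and TAC, and isoleucine tRNAs with AAT, GAT and TAT. Methionine has a single anticodon, CAT, shared by the initiator tRNA, which starts every protein chain, and the elongator tRNA, which adds methionine inside it. Stressed cells cleave mature tRNAs near the anticodon into fragments, so that short tRNA reads are a familiar part of small RNA libraries.

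Sequences could be read for 3 member genes, and they are shown because each is a gene the results return to, with the anticodon in capitals. The first is the ValCAC copy with most reads in the Ion Proton run, at chr13:23446142-23446214 on the minus strand. The second, at chr13:21222586-21222657 on the plus strand, is the AlaAGC copy with most Ion Proton reads. The third, at chr13:21896938-21897031 on the minus strand, is the IleTAT copy with most SOLiD reads, and at 94 bases it is 1 of the 4 IleTAT copies longer than 74 bases. In mature miR-1983, listed as a microRNA, the first 13 bases are the last 13 of that IleTAT gene, and capitals mark the 8 bases that lie past its 3′ end. All positions are on mm10. The first pair of sequences came from RefSeq promoter windows of neighbouring genes, the third from GENCODE release M21, and miR-1983 from RefSeq.
chr13.tRNA966-ValCAC: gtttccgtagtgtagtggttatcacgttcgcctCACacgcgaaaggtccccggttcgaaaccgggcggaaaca
chr13.tRNA66-AlaAGC: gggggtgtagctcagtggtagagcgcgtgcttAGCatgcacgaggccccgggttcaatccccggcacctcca
chr13.tRNA999-IleTAT: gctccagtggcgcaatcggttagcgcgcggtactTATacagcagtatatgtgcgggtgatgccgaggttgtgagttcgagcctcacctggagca
mmu-miR-1983: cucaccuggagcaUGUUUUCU

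The copies cluster in the genome. On chromosome 13, 41 members lie between 21167604 and 23530419, a stretch of 2.36 Mb, and 13 alanine copies lie within 0.233 Mb of chromosome X. By GENCODE, 73 copies are intergenic, 22 lie in introns and 1, the IleTAT copy above, overlaps an exon, that of Mir1983. A RefSeq tRNA gene with the same coordinates was found for 87 of the 96, although for 4 of the 5 IleTAT copies the RefSeq symbol names the AAT anticodon. Copies span 72 to 96 bases and 6 exceed 74 bases, so that reads per gene can be compared between nearly all members without a correction for length.

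Valine tRNAs carried most of the reads on the 4 families in every library. ValCAC, with 11 copies, was at 49696 and 53751 counts per 1000000 (CPM) in the Ion Proton controls and at 90460 and 89431 CPM after M-CSF withdrawal. ValAAC, with 8 copies, was at 22555 and 24292 CPM in the controls and at 40913 and 40523 CPM in the deprived cells. Both withdrawal libraries exceeded both controls for each of these anticodons. ValTAC, with 3 copies, was far lower at 99.0 and 58.9 CPM in controls against 87.7 and 101.6 CPM, and its groups overlapped. Reads were counted at up to 10 places each, so one read can add to several copies and these sums count some reads more than once. An example is chr13.tRNA97-ValCAC, whose 1080, 1174, 1962 and 1930 CPM nearly equal the 1077, 1172, 1958 and 1926 CPM of chr13.tRNA93-ValAAC, so that both valine anticodons are not fully separate measurements.

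**Figure D1:**
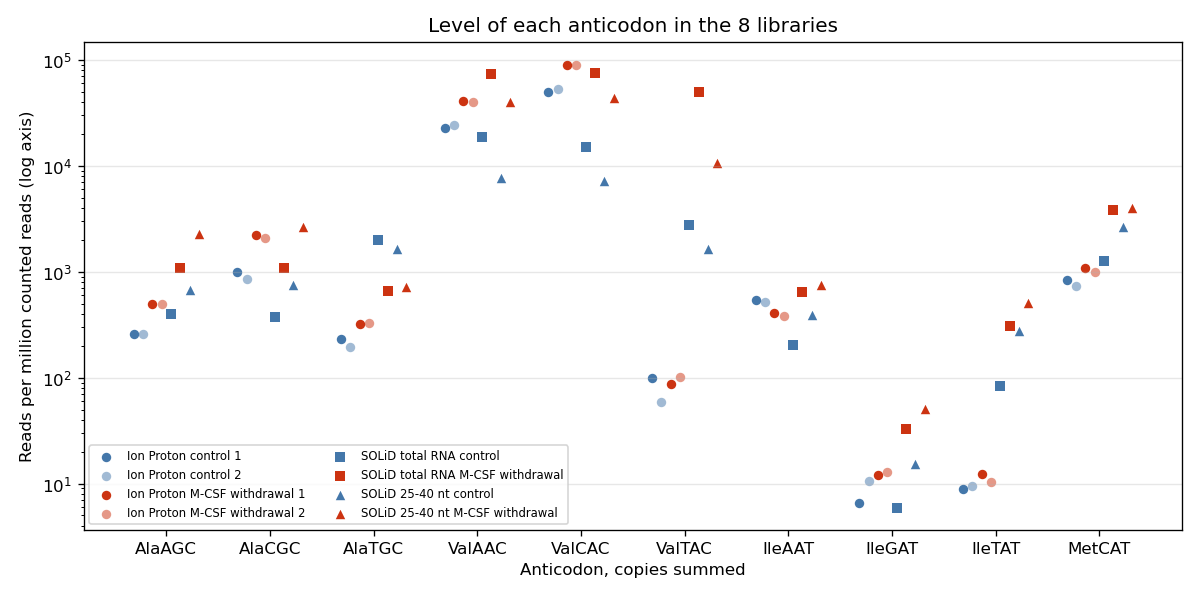
Reads per 1000000 counted reads (log axis) for the 10 anticodons with copies summed, in the 8 libraries. Circles are Ion Proton, squares SOLiD total RNA and triangles SOLiD 25 to 40 nt RNA, with controls blue and M-CSF withdrawal red. ValTAC lies between 58.9 and 101.6 CPM in the 4 Ion Proton libraries and between 1637 and 49731 RPM in the 4 SOLiD libraries.

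Alanine tRNAs came next in the Ion Proton run, led by AlaCGC. Its 10 copies were at 991 and 855 CPM in the controls and 2235 and 2073 CPM after withdrawal. AlaAGC, with 17 copies, was at 256 and 258 CPM against 500.3 and 492 CPM, and AlaTGC, with 11 copies, at 230 and 193 CPM against 318 and 325 CPM. For all 3 anticodons the groups did not overlap and the withdrawal libraries were the higher ones. Methionine tRNAs, summed over 18 copies, were at 829 and 728 CPM in controls and 1087 and 992 CPM in the deprived cells, again without overlap.

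Isoleucine tRNAs ran differently. IleAAT, with 11 copies, was at 546 and 514 CPM in the controls and at 411 and 379 CPM after withdrawal, so both withdrawal libraries were the lower ones. The single IleGAT copy, chr2.tRNA1506-IleGAT, was at 6.57 and 10.6 CPM against 12.1 and 12.7 CPM, and the 5 IleTAT copies at 8.89 and 9.47 CPM against 12.3 and 10.2 CPM. Over the 10 anticodons, 8 were higher without overlap and 1, IleAAT, was lower without overlap, while 24.2% of all features tested were higher and 32.8% lower in this sense.

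In the edgeR quasi-likelihood test of the Ion Proton counts, 6 of the 10 anticodons rose and none fell at a Benjamini-Hochberg adjusted p under 0.05. Of all 1660 features tested, 7.53% were called higher and 5.6% lower. At an unadjusted p under 0.05 the same test gave 6 of the 10, all of them higher, where 405 of the 1660 features passed. DESeq2 also called 6 higher and none lower at its adjusted p, where 129 of all features were called higher and 141 lower. AlaCGC rose by 1.42 ± 0.10 on the log2 scale (SE, adjusted p = 0.0032, edgeR) and AlaAGC by 1.15 ± 0.09 (adjusted p = 0.0037). ValAAC and ValCAC each rose by 1.00 ± 0.07 (adjusted p = 0.0027 and 0.0023), AlaTGC by 0.80 ± 0.12 (adjusted p = 0.023) and MetCAT by 0.62 ± 0.10 (adjusted p = 0.032). ValTAC (0.46 ± 0.27, adjusted p = 0.36), IleGAT (0.73 ± 0.31, adjusted p = 0.24), IleTAT (0.49 ± 0.22, adjusted p = 0.27) and IleAAT (-0.23 ± 0.09, adjusted p = 0.23) did not pass. The test scales libraries by TMM factors, and its values lie about 0.20 above the plain difference in log2 CPM, which for ValCAC was 0.80. AlaTGC and MetCAT lost their calls when either withdrawal library was left out, with adjusted p between 0.054 and 0.088, and the MetCAT call was also lost on its most-read copy alone (adjusted p = 0.051). The median log2 fold change of the 10 anticodons was 0.77, against 0.02 over all features. The other 41 nuclear anticodons had a median of 0.78, with 21 higher and none lower.

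In the Ion Proton run, isoacceptors of one amino acid stood in nearly the same proportions in both groups for valine, while those for alanine lay apart. ValCAC made up 68.8% ± 0.1 (SD, n = 2) of valine tRNA reads in the controls and 68.8% ± 0.0 after withdrawal, and ValAAC 31.1% ± 0.1 and 31.1% ± 0.0. Copies of both anticodons can count the same reads, so an unchanged split does not show that the isoacceptors themselves moved alike. AlaCGC made up 67.1% and 65.5% of alanine tRNA reads in the controls against 73.2% and 71.7% in deprived cells, while AlaTGC went from 15.6% and 14.8% to 10.4% and 11.2%. The groups did not overlap for either alanine anticodon, and the exact two-sided permutation p was 0.333, the smallest that 2 against 2 libraries allow. The valine family held 28.3% ± 1.6 of nuclear tRNA reads in controls and 28.5% ± 0.9 after withdrawal, a difference within the spread of the libraries. The alanine family went from 0.554% and 0.492% to 0.648% and 0.647% of nuclear tRNA reads. The methionine family went from 0.311% and 0.274% to 0.231% and 0.222% of nuclear tRNA reads, and the isoleucine family from 0.210% and 0.201% to 0.0924% and 0.0901%. Together the 4 families took 7.79% ± 0.39 of counted reads in the controls and 13.5% ± 0.1 in the deprived cells (exact permutation p = 0.333). As a share of nuclear tRNA reads they stood at 29.3% ± 1.5 and 29.5% ± 0.9 in the Ion Proton run. In SOLiD total RNA that share was 40.5% in control and 49.0% after withdrawal, with valine at 36.2% and 47.2% and alanine at 2.71% and 0.674%, and in the 25 to 40 nt RNA the 4 families held 26.2% and 25.6%.

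The SOLiD total RNA libraries gave the same direction for most anticodons and a larger span. In these libraries values are reads per 1000000 counted reads (RPM), recovered here as whole reads, and with 1 library per condition no test was possible. ValAAC was at 18669 RPM in control and 73979 RPM after withdrawal, ValCAC at 15212 and 75050 RPM, and ValTAC at 2790 and 49731 RPM. ValTAC thus stood 17.8-fold higher in the withdrawal library, against 3.96-fold for ValAAC and 4.93-fold for ValCAC. The 3 ValTAC copies had log2 ratios between 4.15 and 4.16. Their reads were nearly equal, at 5260 to 5577 in control and 198250 to 208991 after withdrawal. They may count the same reads and are closer to 1 measurement than to 3. The ValTAC share of valine tRNA reads went from 7.61% to 25.02% in SOLiD total RNA, as ValAAC went from 50.9% to 37.2% and ValCAC from 41.5% to 37.8%. By Ion Proton the ValTAC share was 0.0667% to 0.137%.

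Among the alanine tRNAs of SOLiD total RNA, AlaAGC went from 398 to 1090 RPM and AlaCGC from 374 to 1084 RPM. The most-read AlaAGC copy on SOLiD, chr5.tRNA110-AlaAGC, went from 93.0 to 153 RPM, which is 1.65-fold against 2.73-fold for the summed copies. The most-read AlaCGC copy, chr4.tRNA622-AlaCGC, went from 296 to 1020.3 RPM. AlaTGC went the other way, from 1975 to 663 RPM, a ratio of 0.336. Its most-read copy, chr5.tRNA1318-AlaTGC, an intergenic gene at chr5:125404250-125404321, held 1852 of the control RPM and 539 of the withdrawal RPM. The other 10 AlaTGC copies summed to 123 RPM in control and 124 RPM after withdrawal, a log2 ratio of 0.01 with a 95% counting interval from -0.12 to 0.14. In the 25 to 40 nt RNA these 10 copies went from 192 to 167 RPM, a log2 ratio of -0.20 with an interval from -0.33 to -0.07. Among them chr5.tRNA703-AlaTGC (-0.50 and -0.77) and chr11.tRNA2022-AlaTGC (-0.48 and -0.93) had negative log2 ratios in total and in 25 to 40 nt RNA, and were named after their values were seen. Other copies went up. Of the 11 AlaTGC copies, 5 averaged at least 10 RPM in total RNA, and 2 of these were higher after withdrawal. These were chrX.tRNA363-AlaTGC and chrX.tRNA371-AlaTGC, both at 10.6 RPM in control and 18.9 RPM after withdrawal. In 25 to 40 nt RNA 3 of 6 such copies were higher. In the Ion Proton run chr5.tRNA1318-AlaTGC was at 89.3 and 75.2 CPM in controls against 124 and 137 CPM. It was thus higher after withdrawal in one run and lower in the other. The same held for chr5.tRNA703-AlaTGC (22.3 and 18.1 CPM against 33.7 and 30.7 CPM) and chr11.tRNA2022-AlaTGC (43.7 and 38.4 CPM against 64.7 and 66.2 CPM).

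IleAAT was at 203 RPM in the SOLiD control and 647 RPM after withdrawal, opposite to its direction in the Ion Proton run. All 11 copies were higher in the SOLiD withdrawal library, by 1.39 to 1.956 on the log2 scale. IleTAT went from 84.0 to 307 RPM, IleGAT from 5.89 to 32.6 RPM and MetCAT from 1260 to 3852 RPM. The 95% Wilson intervals of these values, which cover counting error only, reach at most 9.3% from the value for every anticodon but IleGAT, where they reach 39.7%. Over the copies with a mean of at least 10 RPM, 67 of 72 were higher after withdrawal, where 57.3% of all such features were higher. The median log2 ratio was 1.71 for these copies, 1.99 for the other nuclear tRNA copies and 0.51 for all features.

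**Figure D2:**
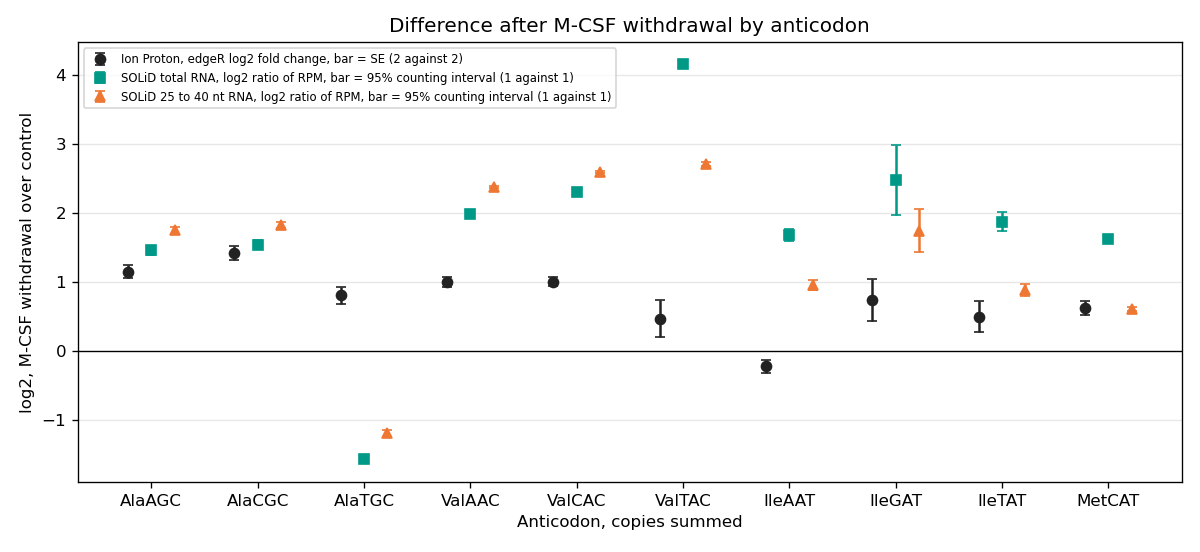
Log2 difference of M-CSF withdrawal over control for the 10 anticodons with copies summed. Black circles are the Ion Proton edgeR fold changes with SE (2 against 2), squares and triangles are SOLiD log2 ratios with 95% counting intervals (1 against 1). AlaTGC lies above 0 in the Ion Proton run and below 0 in both SOLiD comparisons, and IleAAT the reverse.

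In RNA of 25 to 40 nt, valine tRNAs again held most of the reads on the 4 families. ValAAC went from 7724 to 40109 RPM, ValCAC from 7271 to 43884 RPM and ValTAC from 1637 to 10668 RPM, which is 5.19-fold, 6.04-fold and 6.52-fold. The ValTAC ratio was thus close to those of ValAAC and ValCAC in this size class, unlike in total RNA. AlaAGC went from 676 to 2262 RPM and AlaCGC from 757 to 2671 RPM, while AlaTGC went from 1638 to 712 RPM. IleAAT went from 392 to 757 RPM, IleTAT from 274 to 502 RPM, IleGAT from 15.3 to 51.0 RPM and MetCAT from 2622 to 3990 RPM. In this size class 66 of 73 member copies with a mean of at least 10 RPM were higher after withdrawal, where 72.1% of all such features were higher. The median log2 ratio of the members was 1.68, against 1.73 for the other nuclear tRNA copies and 1.02 for all features. The log2 ratios of AlaTGC (-1.20), MetCAT (0.61), IleTAT (0.87) and IleAAT (0.95) lay below this last median, and all but IleAAT also below 0.90, the median of features that reached 10 RPM in control and withdrawal alike.

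Across both runs, the 3 control and 3 withdrawal libraries of total RNA were compared with limma on log2 of CPM or RPM plus 1, with treatment and run as terms. Here 4 of the 10 anticodons rose and none fell, where 6.28% of the 1337 features were called higher and 6.96% lower. AlaCGC rose by 1.33 ± 0.16 (SE, adjusted p = 0.0042, limma), AlaAGC by 1.11 ± 0.17 (adjusted p = 0.012), ValAAC by 1.19 ± 0.26 (adjusted p = 0.035) and ValCAC by 1.30 ± 0.31 (adjusted p = 0.042). MetCAT (0.82 ± 0.26, adjusted p = 0.083), ValTAC (1.59 ± 0.73, adjusted p = 0.19), IleGAT (1.11 ± 0.42, adjusted p = 0.13) and IleTAT (0.79 ± 0.36, adjusted p = 0.18) did not pass. AlaTGC (-0.12 ± 0.42, adjusted p = 0.86) and IleAAT (0.27 ± 0.40, adjusted p = 0.66), whose directions differ between the runs, lay near 0. The 4 calls depended on single libraries, and none was left without Ion Proton control replicate 2. With either SOLiD library left out, the run term takes up the remaining one, so the fit rests on the Ion Proton libraries alone. It then called 6 anticodons higher and IleAAT lower, where 120 or 121 of the 1337 features were called higher and 179 or 185 lower.

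Whether the response differed between the runs was tested as an interaction of treatment with run. A negative value means a smaller rise, or a larger fall, in the Ion Proton run than in SOLiD total RNA. SOLiD has 1 library per condition, so the spread behind the SE and p-values came from the Ion Proton pairs alone, and no spread between SOLiD libraries enters them. In limma 7 of the 10 anticodons passed, 1 positive and 6 negative, where 3.07% of all features were called positive and 8.45% negative, 11.5% together. The interaction was 2.18 ± 0.20 for AlaTGC (SE, adjusted p = 0.0040), -2.09 ± 0.16 for IleAAT (adjusted p = 0.0028) and -3.85 ± 0.44 for ValTAC (adjusted p = 0.0077). The other 4 were ValCAC (-1.503), ValAAC (-1.19), IleTAT (-1.59) and MetCAT (-1.19). For the edgeR fit of counts and recovered reads, AlaTGC (positive), IleAAT, ValAAC, ValCAC and ValTAC (negative) passed, where 7.26% of all features were called positive and 3.14% negative, while MetCAT and IleTAT did not (adjusted p = 0.11 and 0.10). The run stands for sequencer, library kit, input and alignment together, and these cannot be told apart. The limma calls did not hold when any Ion Proton library was left out, which leaves 1 library in a group of that run.

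In the Ion Proton run most single copies went in the direction of their sums, and copies share reads. The copy fit and the summed fit were scaled separately. The most-read ValCAC copy rose by 0.86 in the copy fit, against 1.00 for the ValCAC sum. With every copy a feature of its own, 91 of the 95 members passed the filter of a summed count of at least 5, and 45 rose and 3 fell, where 15.7% of the 2029 features were called higher and 8.97% lower. The largest rises among copies that averaged 10 CPM or more were those of chr4.tRNA622-AlaCGC, chr13.tRNA66-AlaAGC and chr13.tRNA67-AlaAGC. The first of these lies in an intron of Oprd1, the delta opioid receptor gene, at chr4:132125259-132125330 on the plus strand, and it went from 881 and 757 CPM to 2057 and 1914 CPM. It rose by 1.33 ± 0.10 (SE, adjusted p = 0.0027, edgeR) and held 91.0% of all AlaCGC reads of the run. The AlaAGC gene printed above went from 31.1 and 29.1 CPM to 67.2 and 67.6 CPM, a rise of 1.22 ± 0.10 (adjusted p = 0.0029). Its neighbour chr13.tRNA67-AlaAGC went from 31.2 and 27.3 CPM to 63.0 and 67.7 CPM, a rise of 1.21 ± 0.12 (adjusted p = 0.0046).

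The 3 copies that fell were all IleAAT, whose sum was not called lower (-0.23, adjusted p = 0.23, edgeR). These were chr13.tRNA1001-IleAAT, at 58.6 and 55.6 CPM against 42.6 and 39.3 CPM, chr11.tRNA1823-IleAAT, at 58.6 and 55.7 CPM against 42.9 and 39.5 CPM, and chr13.tRNA980-IleAAT, at 58.9 and 55.8 CPM against 43.2 and 39.8 CPM. They fell by 0.43, 0.42 and 0.41 on the log2 scale, with adjusted p of 0.046, 0.047 and 0.049 in edgeR. The other 6 of the 9 IleAAT copies above 10 CPM had nearly the same values, all within 10% of the most-read one, and did not pass, so the 9 copies are closer to 1 measurement than to 9. Below 10 CPM, chr4.tRNA62-IleAAT (0.23) and chr16.tRNA315-IleAAT (0.41) had log2 fold changes above 0 that did not pass. The 3 calls depended on the settings. In edgeR 9 of 91 member copies were called lower under DESeq2 size factors, where 255 of all 2029 features were. With a summed count of at least 10 it was 5 of 86, where 206 of all 1731 features were. None was called lower under TMM factors from microRNAs alone, with a summed count of at least 1, or in the DESeq2 test. Of all features, 26 of 2029, 202 of 2707 and 238 of 2029 were called lower there. With control replicate 1 left out 1 was called lower, and with control replicate 2 or either withdrawal library left out none was.

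**Figure D3:**
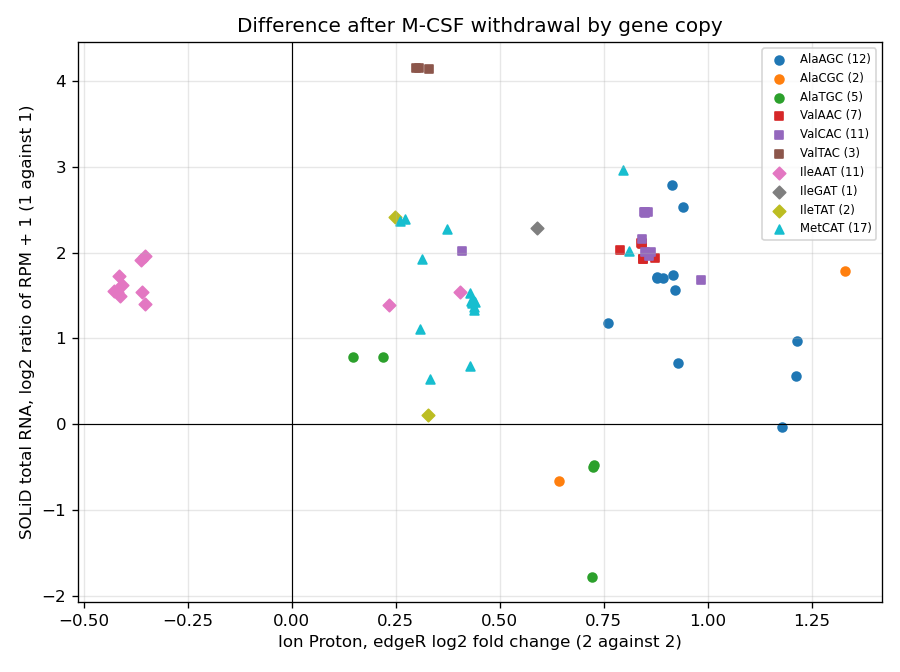
Difference after M-CSF withdrawal for the 71 member copies that averaged at least 1 CPM and 10 RPM, with the Ion Proton edgeR log2 fold change on the x axis and the SOLiD total RNA log2 ratio of RPM + 1 on the y axis. Colours mark the anticodon, with the number of copies in brackets, and 57 copies lie above 0 on both axes.

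For valine, taking only the most-read copy changed the Ion Proton fold changes little but the shares of the anticodons strongly. On most-read copies ValCAC made up 53.2% of valine tRNA reads in the Ion Proton controls, against 68.8% with copies summed. In SOLiD total RNA its share went from 14.3% to 15.3% on most-read copies, against 41.5% to 37.8% with copies summed. In the Ion Proton run the most-read ValCAC copy, printed above, was at 7970 and 8589 CPM in controls and 14527 and 14390 CPM after withdrawal, a rise of 1.03 ± 0.09 (SE, adjusted p = 0.0044, edgeR). The most-read ValAAC copy was chr3.tRNA48-ValAAC at 6978 and 7544 CPM against 12606 and 12533 CPM, a rise of 1.02 ± 0.09. In SOLiD total RNA other copies led, namely chr1.tRNA710-ValCAC (1740 to 9617 RPM) and chr13.tRNA986-ValAAC (9425 to 36054 RPM). The 3 ValTAC copies were within 10% of each other in both runs, and chr19.tRNA109-ValTAC led in both, at 33.8 and 20.2 CPM against 30.4 and 35.2 CPM, and at 966 against 17161 RPM. For IleAAT the leading copies were chr13.tRNA92-IleAAT in the Ion Proton run (60.2 and 57.5 CPM against 46.2 and 42.3 CPM) and chr13.tRNA980-IleAAT in SOLiD total RNA (40.2 to 115 RPM).

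**Figure D4:**
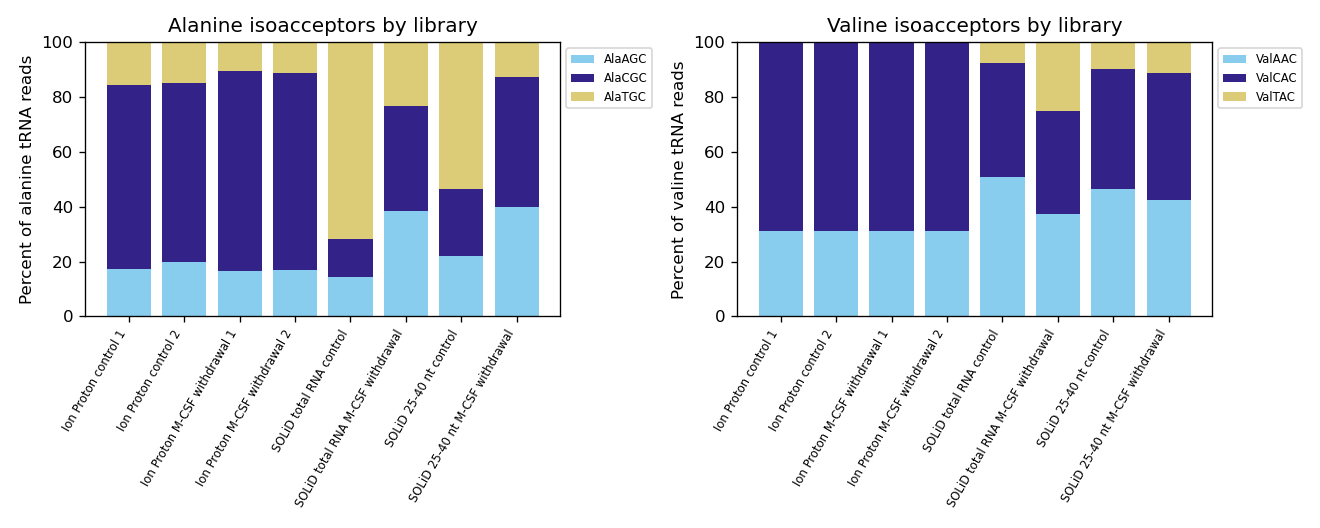
Share of each anticodon in the reads of its amino acid, in percent, for alanine (left) and valine (right) in each of the 8 libraries. AlaTGC held 71.9% of alanine tRNA reads in the SOLiD total RNA control and 14.8% to 15.6% in the Ion Proton controls.

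The single IleTAT gene printed above was the leading IleTAT copy of the SOLiD run, at 45.2 and 245 RPM in total RNA and 142.1 and 396 RPM in the 25 to 40 nt RNA. In the Ion Proton run it was at 2.19 and 2.09 CPM in controls and 2.76 and 2.15 CPM after withdrawal, and chr7.tRNA158-IleTAT led instead, at 2.45 and 3.06 CPM against 3.53 and 3.14 CPM. Reads listed as miR-1983, whose sequence runs out of the 3′ end of that gene, went the other way on SOLiD. They were 46.3 RPM in control and 21.4 RPM after withdrawal in total RNA, and 91.8 and 19.8 RPM in the size selected RNA. In the Ion Proton run miR-1983 had 7 and 26 reads in the controls and 13 and 0 after withdrawal, where 0 reads allow up to 0.496 CPM.

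For methionine, copies were divided by gene length, since the initiator genes are 1 base shorter than the elongator genes in mammals, and this division was chosen after the tables were seen. The 9 copies of 72 bases summed to 651 and 575 CPM in the Ion Proton controls and to 839 and 759 CPM after withdrawal, a rise of 0.58 ± 0.10 (SE, adjusted p = 0.038, edgeR). The 9 copies of 73 bases summed to 178 and 153 CPM against 247 and 233 CPM, a rise of 0.74 ± 0.11 (adjusted p = 0.026). In SOLiD total RNA the 72-base copies went from 828 to 2010 RPM and the 73-base copies from 432 to 1839 RPM, most of it from chr15.tRNA913-MetCAT (327 to 1333 RPM). That gene was the most-read MetCAT copy of SOLiD total RNA, while the leading copy by Ion Proton was chr13.tRNA111-MetCAT, at 80.7 and 71.2 CPM against 104 and 94.3 CPM.

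A pair of 72-base copies stood apart in the 25 to 40 nt RNA. chr13.tRNA90-MetCAT and chr13.tRNA995-MetCAT were at 847 and 897 RPM in the control library and at 536 and 569 RPM in the withdrawal library, whereas the other 7 copies of 72 bases were at 59.0 to 74.9 RPM and at 299 to 366 RPM. In total RNA the pair went from 163 to 412 RPM and from 193 to 309 RPM. In the Ion Proton run the pair did not stand apart, at 80.3 and 79.9 CPM in the first control against 80.7 CPM for the leading copy. Of the other copies of 72 bases, only chr15.tRNA876-MetCAT lay well below them, at 14.2 CPM in that library. These SOLiD values are single libraries and were not tested.

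**Figure D5:**
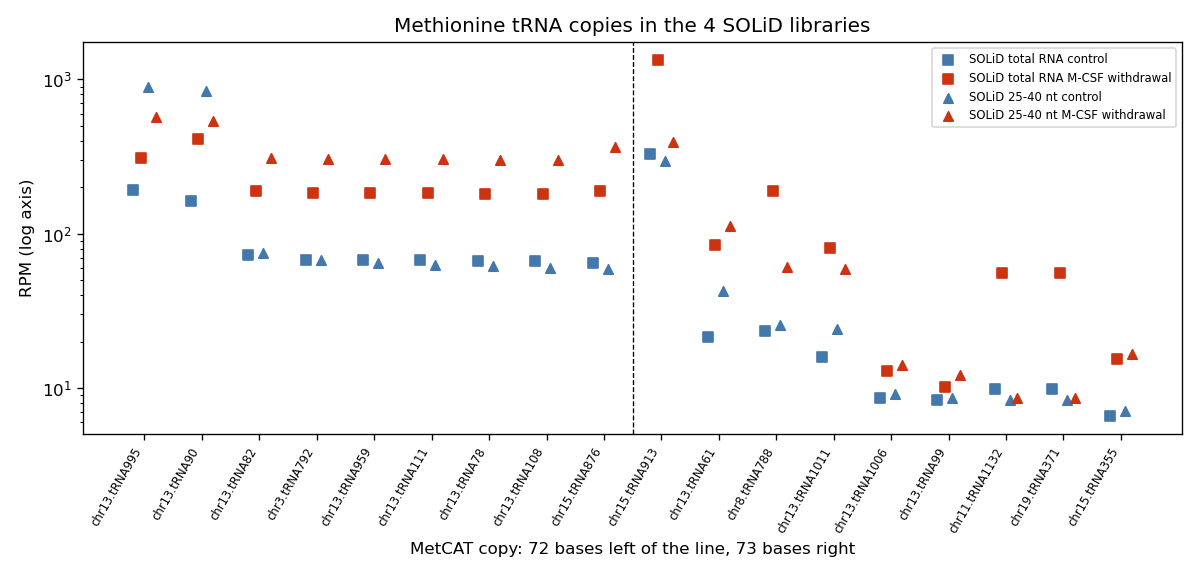
RPM (log axis) of the 18 MetCAT copies of 72 bases (left of the dashed line) and 73 bases (right) in the 4 SOLiD libraries. Squares are total RNA and triangles 25 to 40 nt RNA, with controls blue and M-CSF withdrawal red. chr13.tRNA995 and chr13.tRNA90 are the copies whose size selected control lies above the withdrawal library.

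Mitochondrial tRNAs for the same amino acids, which are made by a separate polymerase from the mitochondrial genome, were tested beside them. All 4 were called higher by edgeR, mt-Ta by 3.87 ± 0.32 (SE, adjusted p = 0.0044), mt-Tm by 3.78 ± 0.10 (adjusted p = 0.00031), mt-Ti by 2.51 ± 0.34 (adjusted p = 0.017) and mt-Tv by 0.65 ± 0.09 (adjusted p = 0.017). The difference from the nuclear tRNAs was not itself tested. Of other RNA polymerase III transcripts, both Y RNAs were called higher, Rny1 by 1.93 and Rny3 by 1.25, as was vault RNA (Vaultrc5) by 1.49. RNase MRP RNA (Rmrp, -0.08), 7SK (Rn7sk, 0.01) and RNase P RNA (Rpph1, -0.36) did not pass, nor did U6 or the 3 entries for 7SL. For 5S rRNA, 49 of the 119 features tested were lower and 1 was higher. The microRNA class had a median log2 fold change of -0.20, with 14 of 744 called higher and 28 lower.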

How the data were processed

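The authors trimmed Ion Proton reads with cutadapt 1.2.1, discarded reads under 15 nt, mapped the rest to mm10 with Bowtie2 2.2.4 at up to 10 places each, and deposited read counts per feature without normalization. SOLiD reads were mapped with LifeScope, and the authors deposited RPM values. They sum to 1000000 per library, and 100% of the 10652 values above 0 were whole multiples of 1 read within 0.01, so reads were recovered. Features are microRNAs of miRBase 21, tRNAs and Ensembl 75 non-coding RNAs. The members and lists were chosen with earlier results of these data known.

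Counts of nuclear tRNA copies were summed by anticodon and tested by the quasi-likelihood method of edgeR 4.0.16 (R 4.3.3), with TMM factors, wherever a feature had 5 or more reads in all. Total RNA libraries of both runs were tested with limma 3.58.1 on log2 of CPM or RPM plus 1 (treatment and run, intensity trend). On recovered reads the edgeR test of both runs called 70 features higher and 7 lower. The Benjamini-Hochberg adjustment covered all features of a fit, with a threshold of 0.05. SOLiD ratios have no replicates and carry 95% counting intervals. DESeq2 1.42.0, other scalings, filters, pseudocounts, the most-read copy, a replicate block and leaving out each library were tried as alternatives. Named were every anticodon, its most-read copy in each run, the 3 copies that rose most and the 3 that fell most in the Ion Proton run (mean of at least 10 CPM, past the threshold), and anticodons whose runs or copies disagree in direction. The pair of methionine copies that stood apart in the 25 to 40 nt RNA was named after its values were seen. The fits were tested on simulated data in which the changed features were well-read ones that each held a small share of reads. ValAAC and ValCAC, each at 2.26% or more of Ion Proton reads, lay outside this restriction, so these simulations changed neither. This restriction was set after earlier simulations, with low-count features among those changed, recovered fewer of them. In every simulation most changes of the smaller size were missed by the interaction fit, which in the last one also made more false calls than its threshold states. Libraries of 1 group differed by more than counting error, so none was counted as a duplicate. For shares, an exact permutation test (two-sided) was used. Sums, shares and figures used Python 3.11.15, pandas 2.3.3, numpy 2.4.6, scipy 1.17.1 and matplotlib 3.10.9.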

Additional observations from a re-analysis of the deposited data

Results flagged for a closer look

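For 7 anticodons the difference in response to M-CSF withdrawal between the Ion Proton and the SOLiD total RNA libraries passed the threshold in limma. SOLiD has 1 library per condition, so the Ion Proton pairs alone supply the spread behind this test, and the spread between SOLiD libraries is unknown. In edgeR 5 of the 7 passed, without IleTAT and MetCAT (adjusted p = 0.10 and 0.11), and with any Ion Proton library left out none passed in limma. In simulated data this fit made more false calls than its threshold states. The Ion Proton minus SOLiD difference in log2 response was 2.18 for AlaTGC, -2.09 for IleAAT, -1.59 for IleTAT, -1.19 for MetCAT, -1.19 for ValAAC, -1.503 for ValCAC and -3.85 for ValTAC. For AlaTGC and IleAAT the runs went in opposite directions, 0.61 against -1.57 for AlaTGC and -0.42 against 1.67 for IleAAT, as differences in log2 of CPM or RPM plus 1. No other anticodon changed direction between the runs, and in limma the response was larger in the SOLiD libraries for the other 8, while in edgeR AlaAGC (0.08) and AlaCGC (0.27) had differences above 0. The median of this difference over all features was -0.16 in limma and 0.29 in edgeR, whose library scaling differs.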

How the results depend on the processing

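Depth and replicates limit these results: 2 against 2 Ion Proton libraries, single SOLiD libraries, and reads counted at several copies. With the replicate block, 0 of the 10 anticodons were called in the Ion Proton run by edgeR, with 7 at an unadjusted p under 0.05. In both runs 2 were called higher and 0 lower, where 46 of all 1337 features were called higher and 5 lower. In the Ion Proton copy fit 33 member copies were called higher and 0 lower. Of all 2029 features in that fit 235 were called higher, which was 65.1% of its calls, and the other calls were lower. The block left the summed Ion Proton fit 1 residual degree of freedom. It called 7 of all 1660 features, and 331 had an unadjusted p under 0.05. The block pairs libraries by their names. Deviations of same-numbered libraries correlated at -0.0093 over 943 features, a single value that cannot show whether the libraries were paired. The other Ion Proton anticodon counts stayed within 1.5 times of 6. DESeq2 called 29 member copies in place of 48. Of all 2029 features it called 232 higher and 238 lower, in place of 318 and 182. With libraries left out in turn, 23 to 38 copies were called in the Ion Proton run, 0 to 7 anticodons in both runs and 0 in the interaction, where no variance estimate beyond 1 degree of freedom remains. The fewest member copies were called in the Ion Proton run when a withdrawal library was left out.

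In both runs the AlaTGC fold change turned to 0.50 when scaled to microRNA reads, and ranged from -0.40 to 0.61 with libraries left out, as IleAAT did from -0.42 to 0.51. The ends 0.61 and -0.42 came without a SOLiD library, where the fit rests on the Ion Proton libraries alone. The interaction in edgeR was 0.079 for AlaAGC and 0.27 for AlaCGC, against negative values in limma. The log2 ratio of the 4 families in SOLiD total RNA was 2.33. It was 1.90 less the median of features, 3.32 when scaled to microRNA reads, 2.16 on most-read copies and 2.40 with AlaTGC taken without its most-read copy, which alone turned AlaTGC to 0.012. In the 25 to 40 nt RNA it was 2.199, and 1.30, 3.15, 1.85 and 2.28 under the same alternatives, and less the median IleTAT was at -0.028 and MetCAT at -0.29.

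The rise in the share of counted reads on the 4 families was 5.72 points, and 1.28 on most-read copies. As a share of nuclear tRNA reads the difference of 0.21 points ranged from -0.88 to 1.29 with libraries left out. On most-read copies the difference in isoacceptor share was 2.98 points for AlaCGC, -2.82 for AlaTGC, -10.2 for IleAAT, 8.55 for IleGAT, 1.63 for IleTAT, -0.19 for ValAAC and 0.24 for ValCAC. With libraries left out, it ranged from -0.035 to 0.037 for ValAAC and from -0.034 to 0.099 for ValCAC. The cause of these differences was not tested, and leaving out the AlaTGC copy or a library only gives the values without it.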
